A study of Homo sapiens with 8 samples.

Results

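The SAM system was compared with the dCas9 + MCP-mCherry control in 4 of the 8 RNA-seq libraries of the series, 2 per group, with groups taken from the labels. HEK293T cells, an established human embryonic kidney line, were transfected in both groups with a pool of MS2-modified gRNAs against the *HBG1* and *HBG2* promoters (125 ng), so the guides were shared and the proteins differed. The SAM libraries came from cells given dCas9-VP64 and MCP-p65-HSF1, and the control libraries from cells given dCas9 without an activation domain and MCP-mCherry, with 187.5 ng of each plasmid and RNA isolated at 72 h. The remaining libraries, 2 of CRISPR-DREAM (dCas9 + MCP-MSN, at the same plasmid amounts) and 2 of dCas9-VPR (375 ng of 1 plasmid, with guides labelled without MS2), are shown beside the SAM values as reference levels. The sources do not give the share of cells transfected, and where nothing says that duplicates came from separate cultures, p-values measure only the spread between these libraries, which may be technical.

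In the SAM system, a guide RNA with MS2 hairpins brings a fusion of the MS2 coat protein (MCP), the p65 activation domain and the HSF1 activation domain to DNA bound by dCas9-VP64. VP64 is a repeat of a herpesvirus activation peptide. p65, encoded by *RELA*, is the activating subunit of NF-kB, which drives inflammatory and survival genes, and HSF1 is the master activator of chaperone genes during heat shock. Each domain works by recruiting coactivators and the Mediator complex to promoters. The globin target and the effector genes themselves were set aside here, and the rest of the transcriptome was described by class.

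Promoters of genes on which the comparison turns are printed first, from RefSeq on GRCh38.p14, each from 250 bases before to 50 bases after an annotated start, 5′ to 3′ along the gene. *HSPA6*, an inducible HSP70 gene, is shown with the heat shock element GAANNTTC, the binding motif of HSF1, in capitals. *HCP5*, among the abundant genes that rose, and *PLK2* and *AEN*, p53 targets that fell, are shown with the GC box GGGCGG in capitals on either strand. *S100A16*, with the largest rise outside the globin locus and HSF1, has 2 annotated starts, of which the one nearer to the 3′ end is shown with its GC box in capitals. The window of the other start, at the 5′ end of the gene, held no GC box and is not printed.
HSPA6 (chr1:161524290-161524589, plus strand): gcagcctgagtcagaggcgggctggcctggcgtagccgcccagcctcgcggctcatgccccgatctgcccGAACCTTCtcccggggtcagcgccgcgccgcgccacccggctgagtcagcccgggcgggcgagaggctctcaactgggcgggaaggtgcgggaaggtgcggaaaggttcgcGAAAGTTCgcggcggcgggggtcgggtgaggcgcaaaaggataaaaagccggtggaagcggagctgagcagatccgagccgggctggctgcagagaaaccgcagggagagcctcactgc
HCP5 (chr6:31462930-31463229, plus strand): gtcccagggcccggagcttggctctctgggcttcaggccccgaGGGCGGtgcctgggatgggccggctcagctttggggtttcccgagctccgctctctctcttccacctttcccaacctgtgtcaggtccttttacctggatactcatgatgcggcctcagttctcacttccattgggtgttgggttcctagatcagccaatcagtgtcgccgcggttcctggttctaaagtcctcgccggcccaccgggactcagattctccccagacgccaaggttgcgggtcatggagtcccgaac
S100A16 (chr1:153609306-153609605, minus strand): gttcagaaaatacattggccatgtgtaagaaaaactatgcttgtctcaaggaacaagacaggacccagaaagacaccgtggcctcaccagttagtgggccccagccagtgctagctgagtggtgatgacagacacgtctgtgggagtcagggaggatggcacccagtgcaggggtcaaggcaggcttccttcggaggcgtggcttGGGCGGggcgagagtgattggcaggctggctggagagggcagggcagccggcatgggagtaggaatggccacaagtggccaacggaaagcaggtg
PLK2 (chr5:58460037-58460336, minus strand): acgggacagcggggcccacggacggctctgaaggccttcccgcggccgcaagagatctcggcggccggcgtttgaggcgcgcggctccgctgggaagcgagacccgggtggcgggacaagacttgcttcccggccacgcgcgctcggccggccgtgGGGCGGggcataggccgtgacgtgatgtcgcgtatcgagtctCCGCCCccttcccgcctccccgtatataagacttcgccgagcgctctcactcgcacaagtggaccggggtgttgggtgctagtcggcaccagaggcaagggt
AEN (chr15:88621090-88621389, plus strand): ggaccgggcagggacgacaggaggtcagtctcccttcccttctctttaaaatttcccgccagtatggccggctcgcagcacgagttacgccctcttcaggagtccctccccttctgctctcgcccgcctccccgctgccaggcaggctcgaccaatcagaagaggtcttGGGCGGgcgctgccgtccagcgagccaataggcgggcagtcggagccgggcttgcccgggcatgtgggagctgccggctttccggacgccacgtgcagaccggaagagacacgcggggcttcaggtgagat
The *HSPA6* window held 2 matches to the heat shock element, and the *PLK2* window held 2 GC boxes in opposite orientations. A match describes the letters of a window, not a bound site.

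Across classes of promoters, the 4 motifs searched on both strands gave a description with no test. Of the 550 RefSeq windows matched by symbol to genes that were higher with the SAM system, 6.00% held a heat shock element, against 4.84% of the 16166 windows of all tested genes and 6.77% of all 35116 windows. Among the 39 windows of the HSF1 target list the share was 35.9%. The letters GGANTTTCC, searched as an NF-kB motif, were in 1.09% of the windows of genes that were higher, 1.59% of those of tested genes and 1.64% of all. Other forms of the NF-kB site were not searched. A GC box was in 51.5%, 66.1% and 45.0%, and the TATA box TATAAA was in 7.27%, 6.22% and 11.5%. Genes that were lower had 48 windows, of which 3 held a heat shock element, 2 the letters GGANTTTCC, 30 a GC box and 5 a TATA box.

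Levels are in read counts scaled to library size (CPM), and changes are log2 fold changes of CPM + 0.5, SAM over control, with the standard error and Benjamini-Hochberg adjusted p of the limma fit over 15122 genes. A gene is said to have risen or fallen where the fold change was above 2 and the false discovery rate (FDR) below 0.05. The spacing of low values gave depths of 28.5 to 35.2 M reads per library, so that 3 reads are worth 0.0853 to 0.105 CPM. With 2 libraries against 2, an exact permutation test of a single gene cannot go below p = 0.333, so the calls rest on the spread pooled over genes. The labelled line matched its markers. *KRT18* was at 82.4 and 79.7 CPM in the control libraries and 100.5 and 101 CPM with the SAM system, and *CDH2* at 66.6 and 62.5 CPM in control and 61.3 and 63.1 CPM with SAM. Of 7 markers of the line all were tested, 1 rose (*KRT8*) and none fell. The red cell membrane gene *SLC4A1* was at 0.0958 and 0.0327 CPM in control and 0.229 and 0.341 CPM with SAM, the factor *KLF1* was below 0.5 CPM and *GATA1* was at or below 0.06 CPM in these 4 libraries. In bulk RNA, fewer cells of a kind and less RNA per cell cannot be told apart.

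With the SAM system, 588 genes rose and 69 fell, which is 3.89% and 0.456% of the 15122 tested. The rises were mostly of low level, since 127 of them and 19 of the falls had a group mean of at least 10 CPM. The balance depended on the scaling, because the median gene was 0.16 higher on the log2 scale in the deposited CPM, and −0.01 after median-of-ratios scaling. After that scaling 390 genes were higher and 109 lower at the same threshold (2.58% and 0.721%). These kept 390 of the 588 rises and all 69 falls, and added 40 falls and 0 rises. Among the 127 rises at 10 CPM or more, 70 were kept. At an FDR below 0.05 with no fold limit, 5398 genes were higher and 1345 lower (35.7% and 8.89%) in the deposited CPM, against 2745 and 3189 (18.2% and 21.1%) after scaling, so the sign of small changes depended on the scaling. Of the 588 rises, 110 were in genes that reached the level filter of 1 CPM in 2 libraries only through the SAM libraries, and 248 were in genes under 1 CPM in both controls. Such genes had to be high to be tested, so counts of rises in lists of low genes are descriptions.

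**Figure D1:**
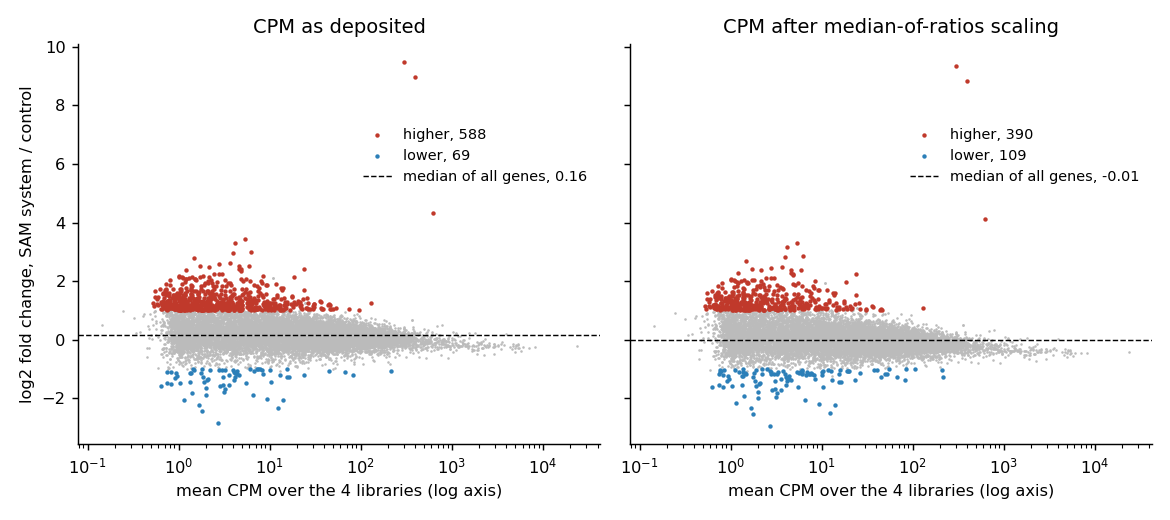
Log2 fold change of the SAM system over the control (y axis) against the mean CPM of the 4 libraries (log x axis) for the 15122 genes tested, in the deposited CPM and after median-of-ratios scaling. Red and blue points are past the threshold, the dashed line is the median gene, and the 3 points above 4 are the globin target *HBG2*, *AC104389.6* and *HSF1*; scaling moved the median from 0.16 to −0.01 and took the calls from 588 and 69 to 390 and 109.

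Long non-coding RNAs made up 92 of the rises and 12 of the falls, of 1174 tested (7.84% and 1.02%). Protein-coding genes made up 482 and 46 of 13251 (3.64% and 0.347%). Pseudogenes made up 12 and 11 of 621 (1.93% and 1.77%). Genes whose symbol joins the symbols of neighbouring genes, which are read-through transcripts in the annotation, held 2 rises and 6 falls among 83 tested. Reads of pseudogenes and read-through transcripts can be shared with the genes they copy or span, so their assignment is uncertain.

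The largest rises among genes at 10 CPM or more were in a calcium-binding protein, a matrix protease and a retinoid enzyme. *S100A16* (chromosome 1, 153606886 to 153613146 in hg38) encodes a small calcium-binding protein and was at 0.351 and 0.652 CPM in the control libraries and 9.86 and 10.5 CPM with the SAM system (log2 fold change 3.43, standard error 0.15, adjusted p = 8.8e-07). *ADAMTS4*, a protease that cuts the cartilage proteoglycan aggrecan, was at 0.798 and 1.21 CPM in control and 10.8 and 11.9 CPM with SAM (log2 fold change 2.99, standard error 0.15, adjusted p = 2.6e-06), and overlaps another gene on the other strand. *RDH12*, a retinol dehydrogenase, was at 1.08 and 1.72 CPM in control and 9.49 and 11.2 CPM with SAM (log2 fold change 2.53, standard error 0.21, adjusted p = 2.9e-05), and overlaps *ZFYVE26* on the other strand. In each of these genes both SAM libraries stood above both control libraries, which follows from choosing the largest rises. *HCP5*, a non-coding RNA gene of the HLA region (chromosome 6, 31463170 to 31478937), was the most abundant of the 12 largest rises at 38.2 and 42.1 CPM, against 6.85 and 7.51 CPM in the control (log2 fold change 2.40, standard error 0.09, adjusted p = 2.6e-07).

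Matrix and surface proteins followed. *FBLN2*, the matrix glycoprotein fibulin 2, was at 2.36 and 3.16 CPM in control and 14.1 and 14.4 CPM with SAM (log2 fold change 2.19, adjusted p = 5.7e-06), and *CSPG4*, the NG2 proteoglycan, at 7.35 and 5.70 CPM in control and 33.5 and 27.7 CPM with SAM (log2 fold change 2.15, adjusted p = 2.9e-05). *MXRA8*, a surface protein that serves as a receptor for arthritogenic alphaviruses, was at 2.97 and 2.28 CPM in control and 11.98 and 9.75 CPM with SAM (log2 fold change 1.86, adjusted p = 2.1e-05). Signalling genes were also among the 12, with *PTGES*, which makes prostaglandin E2, at 3.41 and 2.48 CPM in control and 13.2 and 13.3 CPM with SAM (log2 fold change 2.01, adjusted p = 7.9e-06). *GNG2*, a G protein gamma subunit, was at 3.64 and 3.88 CPM in control and 14.3 and 16.1 CPM with SAM (log2 fold change 1.88, adjusted p = 1.3e-05). *GPR162*, an orphan receptor, was at 3.35 and 3.91 CPM in control and 13.5 and 15.4 CPM with SAM (log2 fold change 1.86, adjusted p = 9.8e-06). *TCEAL7*, an X-linked gene related to elongation factor TFIIS, was at 3.25 and 2.93 CPM in control and 15.1 and 11.5 CPM with SAM (log2 fold change 1.93, adjusted p = 2.9e-05). *H3C6*, a replication-dependent histone H3 gene, was at 4.43 and 4.86 CPM in control and 16.8 and 20.3 CPM with SAM (log2 fold change 1.88, adjusted p = 2.4e-05), and reads of this gene can be shared with near-identical copies. Each of these 12 genes stayed past the threshold after median-of-ratios scaling and above the fold limit without any 1 library. They were chosen as the largest rises, so this is a description only.

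At any level, the 5 largest rises with both controls above 0 also held *LEFTY2*, *B3GNT8* and *SHBG*. *LEFTY2*, a secreted antagonist of Nodal, was at 0.313 and 0.412 CPM in the control libraries and 7.40 and 8.51 CPM with the SAM system (log2 fold change 3.29, standard error 0.17, adjusted p = 2.8e-06). *B3GNT8*, a glycosyltransferase that extends sugar chains, was at 0.734 and 0.326 CPM in control and 7.35 and 7.34 CPM with SAM (log2 fold change 2.96, adjusted p = 5.7e-06). *SHBG*, the carrier of sex steroids in plasma, was at 0.766 and 0.554 CPM in control and 5.57 and 7.96 CPM with SAM (log2 fold change 2.63, adjusted p = 1.3e-05), and overlaps *FXR2* and *SAT2* on the other strand.

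**Figure D2:**
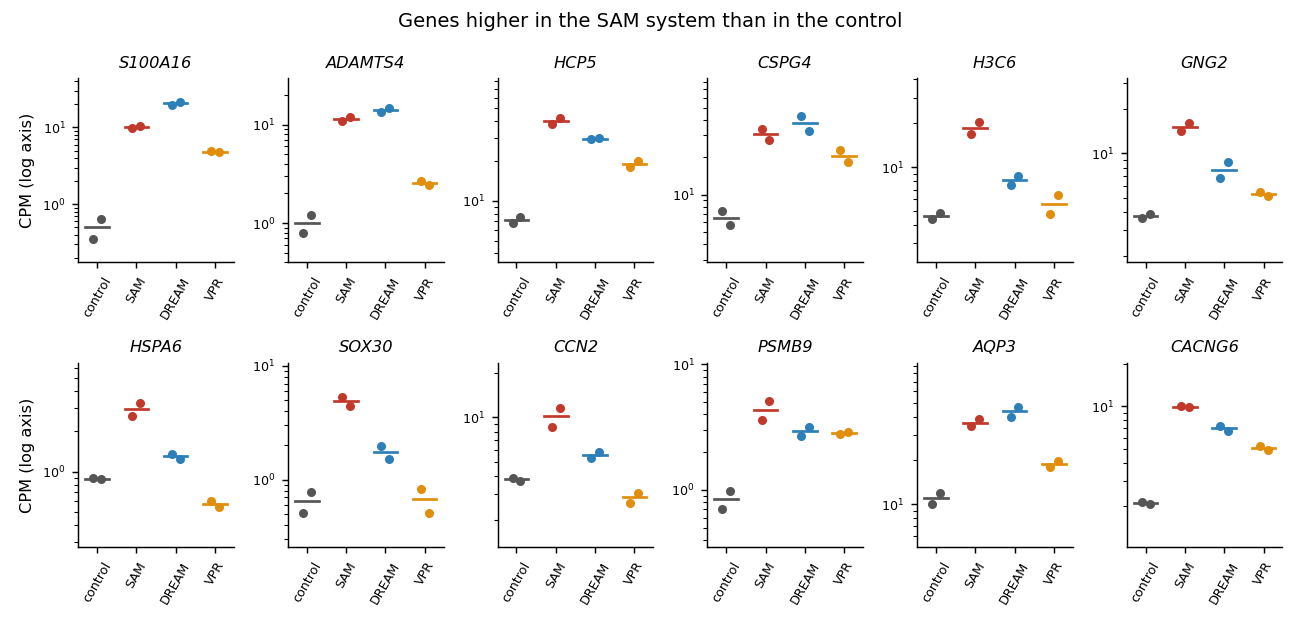
CPM (log y axis) in each library of the 4 groups for 12 genes that rose with the SAM system, with points as libraries and lines as group means. *HSPA6*, *SOX30*, *H3C6* and *GNG2* were higher with SAM than in the other groups, whereas *S100A16* was highest with DREAM, at 19.6 and 21.7 CPM.

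The falls were fewer and included regulators of stress and growth. *PLK2*, a polo-like kinase and p53 target, was at 21.6 and 20.5 CPM in the control libraries and 3.60 and 3.87 CPM with the SAM system (log2 fold change −2.35, standard error 0.12, adjusted p = 2.6e-06). *PVT1*, the non-coding RNA gene beside *MYC*, was at 23.2 and 22.5 CPM in control and 4.86 and 5.37 CPM with SAM (log2 fold change −2.06, standard error 0.13, adjusted p = 5.8e-06). *ISG20*, an RNA exonuclease induced by interferon, was at 10.1 and 11.2 CPM in control and 2.63 and 2.33 CPM with SAM (log2 fold change −1.90, standard error 0.15, adjusted p = 2.4e-05). The level was also low with the other activators, where *PLK2* was at 2.82 and 2.77 CPM with DREAM and 3.98 and 4.52 CPM with VPR, and *PVT1* at 5.85 and 4.88 CPM and 5.15 and 6.03 CPM. *SNHG15*, a host gene of a small nucleolar RNA, was at 110.2 and 119.7 CPM in control and 47.2 and 51.9 CPM with SAM (log2 fold change −1.21, adjusted p = 5.3e-06). *DDIT3*, which encodes the stress factor CHOP, was at 87.6 and 97.9 CPM in control and 45.8 and 40.6 CPM with SAM (log2 fold change −1.09, adjusted p = 1.8e-05), and overlaps *MARS1* on the other strand.

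Of the other abundant falls, *RASSF7* was at 21.0 and 25.3 CPM in control and 8.72 and 9.78 CPM with SAM (log2 fold change −1.27, adjusted p = 4.7e-05), and *UAP1L1*, related to an enzyme of hexosamine synthesis, at 33.9 and 32.4 CPM in control and 13.7 and 14.3 CPM with SAM (log2 fold change −1.21, adjusted p = 1.9e-05). The zinc finger genes *ZNF79* (log2 fold change −1.27), *ZNF77* (−1.22) and *ZNF57* (−1.17) fell, each from between 11.3 and 22.6 CPM to between 4.82 and 9.32 CPM. They were the 3 falls among 380 tested ZNF genes, in which no member rose and the median change was 0.05 (−0.12 after scaling, a change of sign). The pseudogene *ZNF767P* went from 16.1 and 15.0 CPM to 3.32 and 3.51 CPM (log2 fold change −2.03), and *AC133555.6*, a non-coding gene over a duplicated stretch of chromosome 16, from 15.1 and 15.4 CPM to 5.22 and 5.39 CPM (−1.44).

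The 5 largest falls at any level were, beside *PLK2*, in transcripts with close relatives. *CR381653.2*, an unprocessed pseudogene on chromosome 21, was at 5.27 and 4.92 CPM in the control libraries and 0.283 and 0.277 CPM with the SAM system (log2 fold change −2.84, adjusted p = 7.9e-06). The paralogous leukotriene-metabolising P450 genes *CYP4F3* and *CYP4F2* were at 3.89 and 2.84 CPM and at 2.94 and 1.47 CPM in the control libraries, and at 0.190 and 0.228 CPM and 0.0960 and 0.142 CPM with the SAM system (log2 fold changes −2.43 and −2.07, adjusted p = 2.9e-05 and 0.00051). The read-through gene *CHKB-CPT1B* was at 2.85 and 3.34 CPM in control and 0.146 and 0.418 CPM with SAM (log2 fold change −2.22, adjusted p = 0.00022). The SAM levels of *CYP4F2* are near the worth of 3 reads, and the split of reads between these and their relatives is uncertain.

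**Figure D3:**
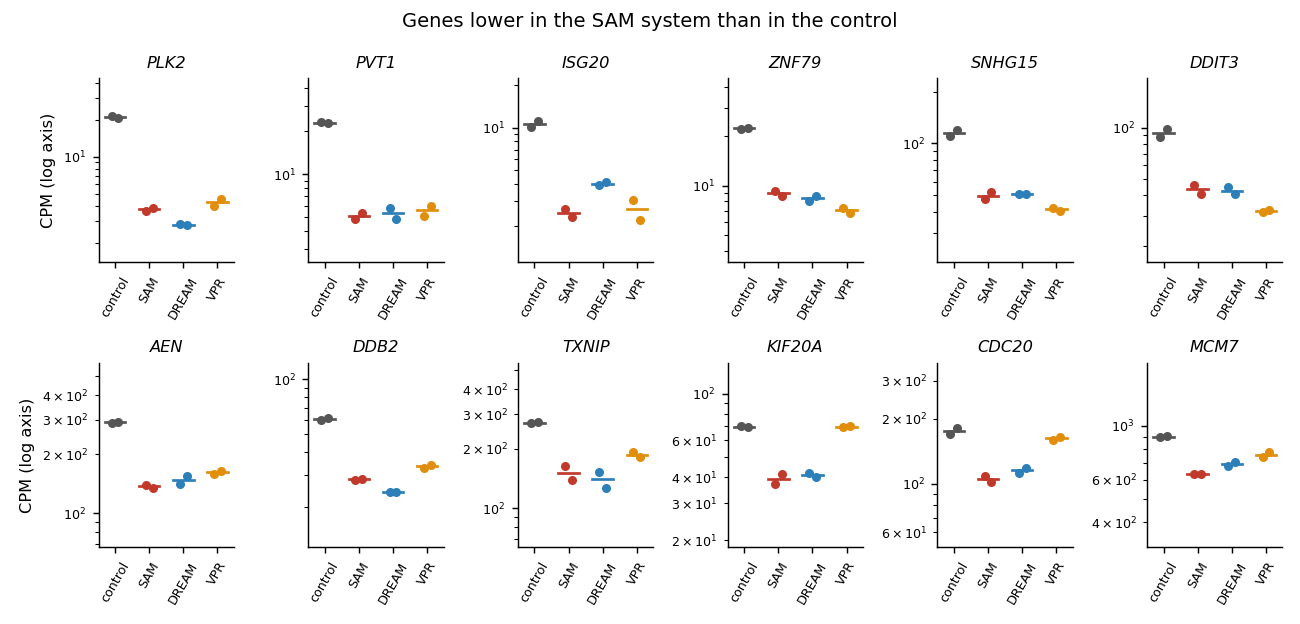
CPM (log y axis) in each library of the 4 groups for 12 genes that were lower with the SAM system than in the control, with points as libraries and lines as group means; *TXNIP*, *KIF20A*, *CDC20* and *MCM7* passed the FDR but not the fold change of 2. *PLK2*, *PVT1*, *ZNF79* and *DDIT3* were also low with DREAM and VPR, whereas *KIF20A* and *CDC20* were at 69.6 and 70.0 CPM and 160.1 and 164 CPM with VPR, near the control.

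The activation domains of the effector come from HSF1 and p65, and known targets of both factors were counted. HSF1 drives chaperones, which fold proteins after stress. Of 27 tested chaperones and other HSF1 targets, 1 rose and 0 fell, with a median change of 0.11 beside 0.16 for all genes. The 1 rise was *HSPA6*, at 0.893 and 0.878 CPM in the control libraries and 2.62 and 3.25 CPM with the SAM system (log2 fold change 1.30, standard error 0.17, adjusted p = 0.00031), where DREAM gave 1.35 and 1.25 CPM and VPR 0.601 and 0.546 CPM. With no fold limit, 9 members were higher and 6 lower at an FDR below 0.05 (35.7% and 8.89% of all genes were). After median-of-ratios scaling 6 were higher and 9 lower (18.2% and 21.1% of all genes were), and the median was −0.07, a change of sign. The count of rises was 2 without SAM replicate 2 or control replicate 1. The share that rose was close to the 3.89% over all genes.

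Members named after their values were seen show both sides. *DNAJA1*, an HSP40 co-chaperone, was at 260.2 and 255 CPM in the control libraries and 327 and 355 CPM with the SAM system (log2 fold change 0.40, adjusted p = 0.00027). *HSPH1*, an HSP110 chaperone, was at 96.9 and 91.2 CPM in control and 119.9 and 129 CPM with SAM (log2 fold change 0.40, adjusted p = 0.00076). *DNAJB4* was at 27.8 and 23.5 CPM in control and 34.7 and 35.1 CPM with SAM (log2 fold change 0.44), and *BAG3*, a partner of HSP70 in selective autophagy, at 21.1 and 18.9 CPM in control and 27.6 and 27.7 CPM with SAM (0.46). After scaling these 4 were at 0.22, 0.22, 0.26 and 0.28, with adjusted p of 0.01, 0.015, 0.029 and 0.015. On the other side, *HSP90AA1*, the inducible HSP90, was at 1219 and 1174 CPM in control and 1071 and 1042 CPM with SAM (log2 fold change −0.18, adjusted p = 0.016), and *DEDD2* at 66.5 and 66.9 CPM in control and 46.4 and 52.7 CPM with SAM (log2 fold change −0.43, adjusted p = 0.0038). *HSPA1B* was at 232 and 196 CPM in control and 254 and 257 CPM with SAM (log2 fold change 0.26, adjusted p = 0.012, and 0.08 with adjusted p = 0.36 after scaling), and its near-identical copy *HSPA1A*, with which it can share reads, was listed at 1.55 and 1.05 CPM in control and 2.20 and 1.45 CPM with SAM. The summed list was at 10267 and 10231 CPM in the control libraries and 9620.2 and 9931 CPM with the SAM system.

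Of 20 tested NF-kB targets, 2 rose and 0 fell, against 3.89% and 0.456% of all genes, and 1 was past the threshold after scaling. The median change was 0.24 (0.06 after scaling). *IL32*, a proinflammatory cytokine, was at 3.29 and 3.36 CPM in control and 11.03 and 11.998 CPM with SAM (log2 fold change 1.65, adjusted p = 7.9e-06), with DREAM at 10.1 and 11.3 CPM and VPR at 11.8 and 11.2 CPM. *PLAU*, the urokinase protease, was at 5.23 and 6.29 CPM in control and 12.1 and 14.2 CPM with SAM (log2 fold change 1.12), and was at 0.95 after scaling, under the fold limit. *CXCL8*, a chemokine and a classic NF-kB target, was lower at 1.52 and 2.02 CPM against 3.19 and 3.85 CPM (log2 fold change −0.83, adjusted p = 0.012), short of the fold limit. At an FDR below 0.05 alone, 12 members were higher and 4 lower, where 35.7% and 8.89% of all genes were. After scaling 6 were higher and 5 lower, where 18.2% and 21.1% of all genes were.

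p53 targets, which respond to DNA damage with arrest, repair or death, held 4 falls and 1 rise among 28 tested, with a median of −0.02, where 0.456% of all genes fell and 3.89% rose. After scaling there were 5 falls and 1 rise, with a median of −0.20. At an FDR below 0.05 alone, 10 members were lower and 5 higher, where 8.89% and 35.7% of all genes were. After scaling 13 were lower and 4 higher, where 21.1% and 18.2% of all genes were. The falls were *PLK2*, *EDA2R*, *DDB2* and *AEN*. *AEN*, a p53-induced nuclease named after its values were seen, was the most abundant of them at 289.9 and 292 CPM in the control libraries and 140.0 and 135 CPM with the SAM system (log2 fold change −1.08, standard error 0.06, adjusted p = 2.8e-06). *DDB2*, which recognises ultraviolet damage, was at 59.7 and 61.4 CPM in control and 28.2 and 28.5 CPM with SAM (log2 fold change −1.08, standard error 0.07, adjusted p = 5.9e-06), and *EDA2R*, a receptor of the TNF family, at 5.42 and 6.88 CPM in control and 2.23 and 2.25 CPM with SAM (log2 fold change −1.27, adjusted p = 0.00059). The rise was *TP53I3*, a quinone oxidoreductase, at 4.85 and 4.76 CPM in control and 12.5 and 12.7 CPM with SAM (log2 fold change 1.30, adjusted p = 2.9e-05). *CDKN1A*, the p21 cell cycle inhibitor, was at 153 and 154 CPM in control and 114 and 105 CPM with SAM (log2 fold change −0.48, adjusted p = 0.0002), and *MDM2* did not pass the test at 85.5 and 74.3 CPM in control and 70.5 and 70.4 CPM with SAM (log2 fold change −0.18, adjusted p = 0.19), but was lower after scaling (−0.36, adjusted p = 0.01). Targets of the same factor thus changed in both directions.

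In the list of FOXO, glucocorticoid and nutrient-responsive genes no member was past the threshold, and 11 of 24 were lower and 3 higher at an FDR below 0.05, where 8.89% and 35.7% of all genes were (median −0.16, and −0.34 after scaling). *TSC22D3*, the glucocorticoid-induced leucine zipper, was at 1039 and 1181 CPM in control and 713 and 718 CPM with SAM (log2 fold change −0.63, adjusted p = 0.00019), and *DDIT4*, an inhibitor of mTORC1, at 634 and 646 CPM in control and 419 and 408 CPM with SAM (log2 fold change −0.63, adjusted p = 5.3e-05). *TXNIP*, a brake on glucose uptake, was at 269 and 272 CPM in control and 163 and 139 CPM with SAM (log2 fold change −0.84, and −1.03 and past the threshold after scaling). *PDK4*, which restrains glucose oxidation, was on the other side at 6.32 and 5.67 CPM in control and 10.1 and 11.998 CPM with SAM (log2 fold change 0.82, adjusted p = 0.00051). The list summed to 2639.6 and 2788 CPM in the control, 1939 and 1891 CPM with SAM, 1793 and 1807 CPM with DREAM and 2166 and 2284 CPM with VPR, and the control libraries were above the others.

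Of 28 tested genes of ATF4 and the unfolded protein response, 1 fell, *DDIT3*, and 0 rose. At an FDR below 0.05, 17 were lower and 1 higher (median −0.22), where 8.89% and 35.7% of all genes were. After scaling 23 were lower and 0 higher, where 21.1% and 18.2% of all genes were. *INHBE*, a hepatokine, is counted in the TGF-beta, Nodal and BMP list and not in this one. *INHBE* was at 60.4 and 74.0 CPM in control and 34.0 and 32.5 CPM with SAM (log2 fold change −0.997, adjusted p = 6.9e-05), at the edge of the fold limit. It passed that limit after scaling (−1.18) and without SAM replicate 1 or control replicate 1. In the immediate early list 3 of 30 rose and 0 fell (median 0.03), against 3.89% and 0.456% of all genes, and 2 rose after scaling. At an FDR below 0.05 alone, 9 were higher and 10 lower, where 35.7% and 8.89% of all genes were. After scaling 4 were higher and 11 lower, where 18.2% and 21.1% of all genes were. The lowest member was *KLF10*, a TGF-beta-inducible repressor, at 128 and 120.2 CPM in control and 86.2 and 75.5 CPM with SAM (log2 fold change −0.62, adjusted p = 0.00077). *CCN2*, a matricellular target of YAP and TGF-beta, was at 3.86 and 3.72 CPM in control and 8.60 and 11.7 CPM with SAM (log2 fold change 1.29, adjusted p = 0.00018), where DREAM gave 5.31 and 5.79 CPM and VPR 2.63 and 3.08 CPM. The other rises were *EGR3* (1.20), which did not pass the fold limit without SAM replicate 2, and *DUSP2* (1.03), which did not pass it after scaling or without SAM replicate 1 or control replicate 1.

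Among interferon and antigen presentation genes 15.6% rose, against 3.89% of all genes. Immunoproteasome subunits and HLA-region genes help cells cut and display peptides to T cells. Of 32 tested, 5 rose and 1 fell (median 0.33, 0.16 after scaling), and 17 were higher and 1 lower at an FDR below 0.05 (35.7% and 8.89% of all genes were). After scaling 8 were higher and 2 lower (18.2% and 21.1% of all genes were). Beside *HCP5*, the immunoproteasome gene *PSMB9* was at 0.702 and 0.978 CPM in control and 3.60 and 5.12 CPM with SAM (log2 fold change 1.85, adjusted p = 7.6e-05), and its neighbour *PSMB8* at 0.447 and 0.294 CPM in control and 1.46 and 2.16 CPM with SAM (log2 fold change 1.40, adjusted p = 0.00069). The gene models of the pair overlap on opposite strands. *PSMB8* reached the level filter only through the SAM libraries, so its being tested required a high level with SAM. Both controls were under 1 CPM in 2 of the 5 rises, so the share that rose is a description only. *IFI35* was at 6.06 and 5.54 CPM in control and 12.7 and 13.9 CPM with SAM (log2 fold change 1.13), and *NLRC5*, the activator of HLA class I genes, at 0.606 and 1.14 CPM in control and 2.26 and 2.27 CPM with SAM (1.04), and both, named after their values were seen, were under the fold limit after scaling. *NLRC5* was also under it without control replicate 1. The fall was *IFI27*, at 4.05 and 4.30 CPM in control and 1.52 and 2.13 CPM with SAM (log2 fold change −1.02, adjusted p = 0.001), which was under the limit without SAM replicate 1 or control replicate 2. *ISG20*, described above as induced by interferon, fell further (log2 fold change −1.90) and is not counted in this list. The summed list was 1671 and 1736 CPM in the control, 1905 and 2058 CPM with SAM, 2187 and 2416 CPM with DREAM and 2023 and 2079 CPM with VPR.

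**Figure D4:**
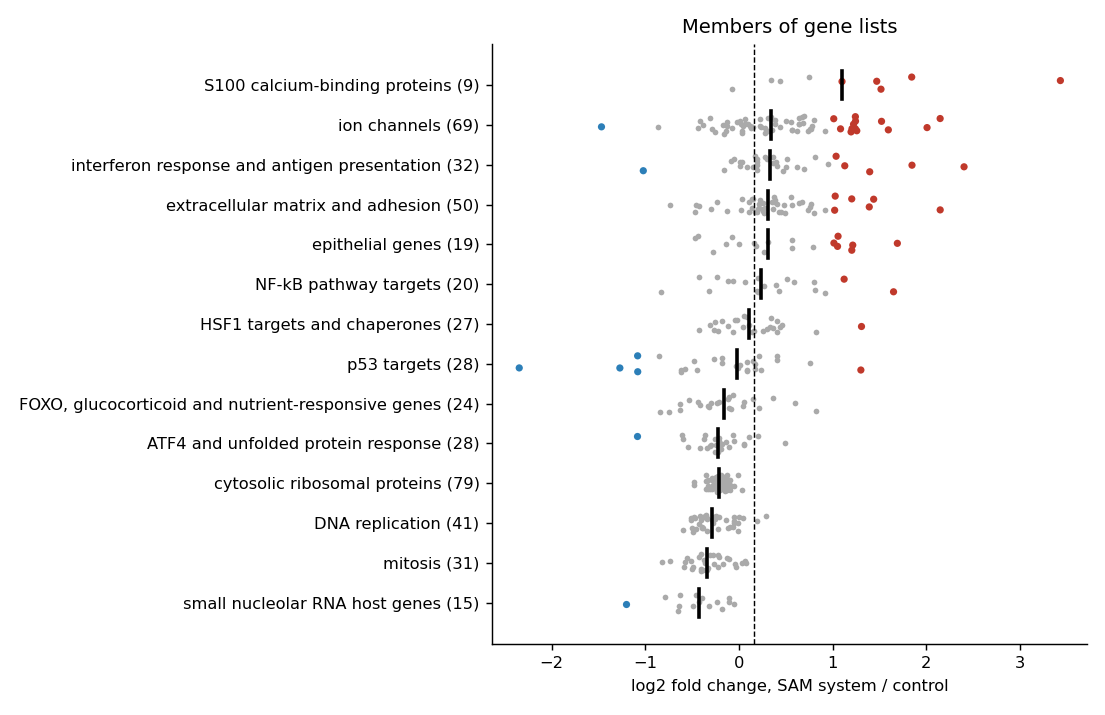
Log2 fold change of the SAM system over the control (x axis) for each tested member of 14 gene lists, with the number tested in brackets. Red and blue points are past the threshold, black bars are list medians, and the dashed line is the median of all genes at 0.16; the S100 family has a median of 1.10, and no member of the ribosomal protein, DNA replication or mitosis lists is past the threshold.

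Proliferation genes were lower by small amounts. In the mitosis list, of 31 tested, 22 were lower and 0 higher at an FDR below 0.05, where 8.89% and 35.7% of all genes were, none past the fold limit, with a median of −0.35 (−0.53 after scaling). The list summed to 3779 and 3899 CPM in the control, 2998 and 2937 CPM with SAM, 2978 and 2888 CPM with DREAM and 3907 and 3863 CPM with VPR. The SAM and DREAM libraries did not overlap with those of the control and VPR. *BIRC5*, the survivin gene, was at 489 and 549.9 CPM in control and 334 and 360.0 CPM with SAM (log2 fold change −0.58, adjusted p = 0.00021), and *TOP2A*, the mitotic topoisomerase, at 411 and 411 CPM in control and 344 and 304 CPM with SAM (log2 fold change −0.35, adjusted p = 0.0069).

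Members named after their values were seen were *KIF20A*, a cytokinesis kinesin at 70.1 and 69.2 CPM in control and 37.2 and 41.4 CPM with SAM (log2 fold change −0.82, adjusted p = 2.8e-05), *CDC20*, the activator of the anaphase-promoting complex at 170.3 and 180.4 CPM in control and 108 and 102 CPM with SAM (log2 fold change −0.73, adjusted p = 1.9e-05), and *PLK1* at 158 and 164 CPM in control and 109 and 105 CPM with SAM (log2 fold change −0.59, adjusted p = 3.9e-05). *KIF20A* was just past the fold limit after scaling (−1.001). The highest member was *CENPF*, at 9.51 and 7.60 CPM in control and 10.0 and 8.07 CPM with SAM (log2 fold change 0.08, −0.10 after scaling, adjusted p = 0.76). In the direct comparison with VPR, 24 of the 31 were lower with SAM and 0 higher at an FDR below 0.05, against 6.32% lower and 23.6% higher over all genes. With DREAM, 0 were lower and 2 higher, against 1.59% and 9.14%.

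Of 41 tested DNA replication genes, 27 were lower and 1 higher at an FDR below 0.05, where 8.89% and 35.7% of all genes were (median −0.29, and −0.47 after scaling). *MCM7*, a subunit of the replicative helicase, was at 895 and 906 CPM in control and 632 and 635 CPM with SAM (log2 fold change −0.51, adjusted p = 4.1e-05), and *PCNA*, the polymerase clamp, at 445 and 437 CPM in control and 320.0 and 318 CPM with SAM (log2 fold change −0.47, adjusted p = 6e-05). *CDT1*, which loads the helicase, was at 233 and 223 CPM in control and 161 and 141 CPM with SAM (log2 fold change −0.60), and *CCNE1* was the 1 member on the other side, at 14.6 and 13.7 CPM in control and 17.2 and 17.7 CPM with SAM (log2 fold change 0.29, adjusted p = 0.019, and 0.12 with adjusted p = 0.31 after scaling). The list summed to 6507 and 6399.6 CPM in the control libraries and 5209 and 5028 CPM with SAM. Whether cell cycle phase or cell number moved was not tested.

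Cytosolic ribosomal protein genes were also lower, within a narrow range. Ribosomal proteins build the subunits that translate messenger RNA. Of 79 cytosolic ribosomal protein genes, 58 were lower and 0 higher at an FDR below 0.05, against 8.89% and 35.7% of all genes, with a median of −0.21 and a range from −0.48 (*RPL7A*) to 0.03 (*RPL28*). *RPS2* was at 9217 and 8901 CPM in control and 7823 and 7255 CPM with SAM (log2 fold change −0.27, adjusted p = 0.002), and *RPLP0* at 6325 and 7035 CPM in control and 5400.2 and 5759 CPM with SAM (log2 fold change −0.26, adjusted p = 0.017). The 79 genes together took 19.6% and 20.8% of the CPM in the control libraries and 17.0% and 17.6% with the SAM system. Translation factors were mixed, with 12 of 40 lower and 5 higher at an FDR below 0.05 (median −0.03), and 26 and 1 after scaling. Of mitochondrial ribosomal protein genes, 21 of 78 were higher and 4 lower (median 0.06), and 3 and 22 after scaling. Over all genes 18.2% were higher and 21.1% lower at this FDR after scaling. The 2 most abundant translation factors were lower, where *EEF1A1* was at 25056 and 25917 CPM in control and 21511 and 22168 CPM with SAM (log2 fold change −0.22, adjusted p = 0.0033) and *EEF1G* at 7595 and 7875 CPM in control and 6299 and 6376 CPM with SAM (log2 fold change −0.29, adjusted p = 0.00087). Of 15 snoRNA host genes, 10 were lower and 0 higher at an FDR below 0.05 (median −0.42), and *SNHG15* alone fell past the fold limit.

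**Figure D5:**
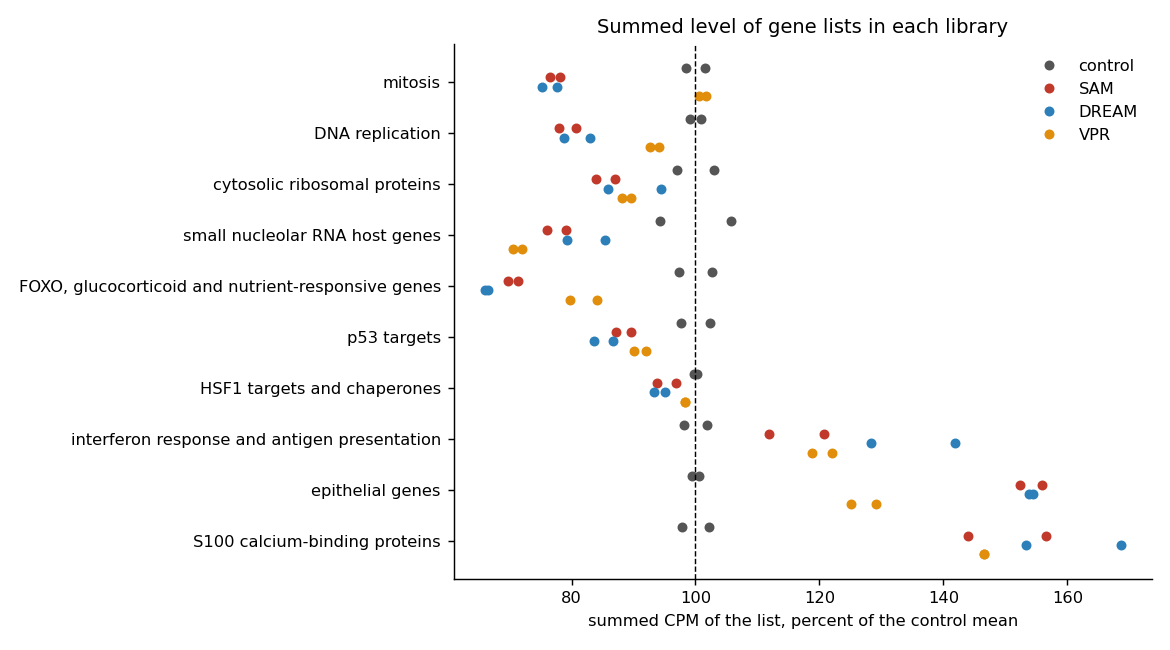
Summed CPM of 10 gene lists in each library, in percent of the mean of the 2 control libraries (x axis), with 1 point per library and colours for the 4 groups. With SAM the mitosis list was at 78.1% and 76.5% and the DNA replication list at 80.7% and 77.9%, and the epithelial list was at 152% and 156%; with VPR the mitosis list was at 102% and 101%.

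Among epithelial genes 31.6% rose, against 3.89% of all genes. Of 19 tested epithelial genes, 6 rose and 0 fell (median 0.31, 0.13 after scaling), and 3 were past the threshold after scaling. At an FDR below 0.05 alone, 11 were higher and 1 lower, where 35.7% and 8.89% of all genes were. After scaling 7 were higher and 1 lower, where 18.2% and 21.1% were. The lowest member was *CD24* (log2 fold change −0.47), named after its value was seen. Among the 19, 1 reached the level filter only through the SAM libraries, and 1 of the 6 rises was under 1 CPM in both controls. The share is therefore a description only. *AQP3*, a water and glycerol channel of epithelia, was at 10.1 and 11.9 CPM in control and 34.4 and 38.7 CPM with SAM (log2 fold change 1.69, adjusted p = 7.9e-06). The tight junction genes *CLDN7* and *TJP3* were at 1.98 and 2.41 CPM and 4.91 and 5.18 CPM in the control libraries, and at 5.29 and 6.23 CPM and 11.6 and 13.1 CPM with the SAM system (log2 fold changes 1.22 and 1.21). *CLDN4* was at 0.511 and 0.685 CPM in control and 1.72 and 1.71 CPM with SAM (1.01), under the fold limit after scaling and without control replicate 1. *KRT8*, a keratin that HEK293T cells express, was at 50.2 and 45.2 CPM in control and 105 and 95.1 CPM with SAM (log2 fold change 1.06, adjusted p = 2.4e-05). *KRT8* was under the fold limit after scaling and without SAM replicate 1 or control replicate 2, and overlaps *KRT18* on the other strand.

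In the matrix and adhesion list, 6 of 50 rose and 0 fell (median 0.32), against 3.89% and 0.456% of all genes, and 4 were past the threshold after scaling. *SPARC*, a collagen-binding matricellular protein, was at 13.4 and 13.9 CPM in control and 35.5 and 40.3 CPM with SAM (log2 fold change 1.44, adjusted p = 1.1e-05), at the level of VPR (34.2 and 35.2 CPM). *COL9A3*, a cartilage collagen chain, was at 5.46 and 6.14 CPM in control and 14.7 and 17.4 CPM with SAM (log2 fold change 1.39, adjusted p = 5.8e-05). *LGALS1*, galectin 1, was lower at 12.3 and 15.5 CPM in control and 7.52 and 8.67 CPM with SAM (log2 fold change −0.74, adjusted p = 0.0026).

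The S100 family, small calcium-binding proteins mostly clustered on chromosome 1, had 5 rises among 9 tested and no fall, with a median of 1.10 (0.95 after scaling), and 3 rises and a median of 0.70 without SAM replicate 2. *S100Z* reached the level filter only through the SAM libraries and *S100B* through libraries of the activators, so their place among the 9 depended on a high level with an activator, and the count and median are a description only. *S100A1*, known from heart muscle, was at 1.12 and 1.18 CPM in control and 4.79 and 6.11 CPM with SAM (log2 fold change 1.85, adjusted p = 4.2e-05), below its DREAM level of 19.2 and 26.9 CPM and VPR level of 10.7 and 11.1 CPM (adjusted p = 0.0006 and 0.0023). *S100Z* on chromosome 5 was at 0.255 and 0.228 CPM in control and 1.54 and 1.71 CPM with SAM (log2 fold change 1.52, adjusted p = 0.0002). *S100B*, a glial marker, was at 0.0320 and 0.0653 CPM, which is under 3 reads, and at 0.8005 and 1.28 CPM. *S100A4* was at 1.40 and 1.60 CPM in control and 3.001 and 4.75 CPM with SAM (log2 fold change 1.10), under the fold limit after scaling (0.95) and without SAM replicate 2. The abundant member *S100A10* did not pass the test at 31.5 and 34.7 CPM in control and 32.6 and 30.3 CPM with SAM (log2 fold change −0.07, adjusted p = 0.48), but was lower after scaling (−0.25, adjusted p = 0.028). *S100B*, *S100A4* and *S100A10* were named after their values were seen.

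Secreted developmental signals and their feedback genes were mixed. In the TGF-beta, Nodal and BMP list 2 of 26 rose and 0 fell (median 0.10, −0.07 after scaling), against 3.89% and 0.456% of all genes. The rises were *LEFTY2* and its neighbour *LEFTY1*, at 0.613 and 0.872 CPM in control and 2.15 and 2.72 CPM with SAM (log2 fold change 1.24, adjusted p = 0.0012). Both were under 1 CPM in both controls, so the share is a description only. At an FDR below 0.05 alone, 8 members were higher and 5 lower, where 35.7% and 8.89% of all genes were. After scaling 7 were higher and 6 lower, where 18.2% and 21.1% were. The lowest member was *INHBE* (log2 fold change −0.997), described above. *ID1*, *ID2* and *ID3*, targets of BMP signalling named after their values were seen, had log2 fold changes of −0.83, −0.82 and −0.98 with adjusted p of 0.0018, 0.00073 and 0.0019. *ID3* was at 62.9 and 74.6 CPM in control and 30.9 and 38.6 CPM with SAM, and *ID2* at 103 and 112 CPM in control and 54.3 and 67.8 CPM with SAM, both past the fold limit after scaling. Without SAM replicate 2 *ID1* and *ID3* passed it, and without control replicate 1 *ID3* did. Among 44 genes of the WNT, Notch and FGF pathways, 2 rose and 0 fell (median 0.26), a share close to the 3.89% of all genes that rose. *NKD1*, a feedback inhibitor of WNT, was at 3.76 and 3.55 CPM in control and 10.7 and 11.5 CPM with SAM (log2 fold change 1.48, adjusted p = 2.2e-05), and the ligand *WNT6* at 0.861 and 0.750 CPM in control and 2.66 and 2.10 CPM with SAM (log2 fold change 1.14, adjusted p = 0.00051), which was under the fold limit without SAM replicate 1. The ligand *WNT9B* was at 0.351 and 0.620 CPM in control and 1.80 and 1.39 CPM with SAM (log2 fold change 1.10), under the limit after scaling and without SAM replicate 1 or control replicate 1.

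Some factors and channels of other lineages, low in these cells, rose. Of 98 tested developmental transcription factors of the PAX, SOX, GATA and related families, 6 rose and 0 fell (median 0.17), or 6.12% higher against 3.89% of all genes. Among these 6 rises, 1 reached the level filter only through the SAM libraries and 3 were under 1 CPM in both controls. The share is therefore a description only. *SOX30*, a testis factor, was at 0.511 and 0.783 CPM in control and 5.29 and 4.46 CPM with SAM (log2 fold change 2.24, adjusted p = 4.8e-05), against 1.96 and 1.51 CPM with DREAM and 0.830 and 0.513 CPM with VPR. *PAX7*, of muscle stem cells, was at 0.574 and 0.652 CPM in control and 2.74 and 3.41 CPM with SAM (log2 fold change 1.68, adjusted p = 7.5e-05), and *GATA5*, of heart and gut, at 2.71 and 2.54 CPM in control and 8.89 and 9.01 CPM with SAM (log2 fold change 1.60, adjusted p = 1.9e-05). None of 34 HOX genes was past the threshold (median −0.02). Of 69 tested ion channel genes, 13 rose and 1 fell (median 0.35), or 18.8% higher against 3.89% of all genes, and 11 and 2 after scaling. *CACNG6*, a calcium channel subunit, was at 2.14 and 2.05 CPM in control and 10.1 and 9.84 CPM with SAM (log2 fold change 2.01, adjusted p = 5.3e-06), and *SCN4B*, a sodium channel subunit, at 3.67 and 3.72 CPM in control and 12.1 and 12.2 CPM with SAM (log2 fold change 1.60, adjusted p = 7.9e-06). *KCNE3*, a potassium channel subunit, was listed at 0 and at 0.108 CPM in the control libraries and was at 1.92 and 1.98 CPM with SAM. Among the 13 rises 2, *KCNE3* included, reached the level filter only through the SAM libraries. Both controls were under 1 CPM in 6 of the 13, so the share of channels that rose is a description only. *KCNN4*, a calcium-activated potassium channel, was the fall, at 1.60 and 1.08 CPM in control and 0.172 and 0.142 CPM with SAM (−1.47), and fell below the level filter, so was not tested, when either control library was left out.

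Some markers of other cell types also rose. Of 4 endothelial markers 3 were in the files and 2 tested. *PECAM1* reached the level filter only through the SAM libraries, so its being tested required a high level with SAM. *PECAM1* was at 0.0320 and 0.131 CPM in the control libraries and 1.03 and 1.17 CPM with SAM, and *KDR*, the VEGF receptor, at 0.447 and 0.717 CPM in control and 2.69 and 2.90 CPM with SAM, both past the threshold, while *VWF* was at or below 0.114 CPM in these 4 libraries. The 3 summed to 0.542 and 0.880 CPM in the control libraries and 3.80 and 4.18 CPM with SAM. Of 5 haematopoietic markers 2 were tested. *CD68*, a macrophage marker, was at 1.45 and 0.684 CPM in control and 2.93 and 3.06 CPM with SAM (log2 fold change 1.20, adjusted p = 0.0013), and was under the fold limit without control replicate 2. Of 5 fibroblast markers 4 were tested and none was past the threshold, with *COL1A1* at 8.996 and 8.51 CPM in control and 15.5 and 13.0 CPM with SAM and *LUM* at 1.56 and 1.63 CPM in control and 2.77 and 4.38 CPM with SAM, where *LUM* passed it without SAM replicate 1. The 5 summed to 16.5 and 17.2 CPM in control and 23.4 and 23.1 CPM with SAM. Of 10 erythroid markers 4 were in the files and summed to 15.8 and 16.7 CPM in control and 19.2 and 21.9 CPM with SAM, nearly all of it *EPOR*. Their part in the rises was not tested.

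Several genes that moved lie side by side. *ADGRG1* and *ADGRG3*, adhesion receptors next to each other on chromosome 16, were at 0.192 and 0.131 CPM and 0.542 and 0.424 CPM in the control libraries, and at 3.20 and 3.41 CPM and 2.49 and 2.701 CPM with the SAM system (log2 fold changes 2.53 and 1.66). *LEFTY1* and *LEFTY2*, and *PSMB8* and *PSMB9*, are such pairs of rises, and *H3C6* lies in the histone cluster of chromosome 6 with *H4C8*, at 0.606 and 0.913 CPM in control and 3.32 and 5.71 CPM with SAM (log2 fold change 1.96, adjusted p = 0.00018). Among the falls, *AEN* (chromosome 15, 88621337 to 88632282) is next to *ISG20* (chromosome 15, 88636153 to 88656484), and *ZNF57* (chromosome 19, 2900898 to 2918474) is next to *ZNF77* (chromosome 19, 2933218 to 2944972), all in hg38. The pairs were noticed after the values were seen and no test of neighbourhood was made.

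The direct comparisons with the other activators share the SAM libraries with the comparison above, so values are set side by side only. Relative to DREAM, 91 genes were higher and 18 lower with SAM (0.602% and 0.119%), and relative to VPR 343 and 6 (2.27% and 0.0397%). *SOX30* (log2 difference 1.27, adjusted p = 0.0085), *H4C8* (1.40, adjusted p = 0.0094), *H3C6* (1.14, adjusted p = 0.0045) and *SHBG* (1.07, adjusted p = 0.011) were higher with SAM than with DREAM. *S100A16* was lower with SAM than with DREAM (log2 difference −0.98, adjusted p = 0.0078), short of the fold limit, and *ADAMTS4* did not pass the test (−0.29, adjusted p = 0.23).

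Relative to VPR, *RDH12* (2.33, adjusted p = 0.00016), *TCEAL7* (2.20, adjusted p = 8.2e-05), *ADAMTS4* (1.97, adjusted p = 0.00011) and *CCN2* (1.65, adjusted p = 0.00016) were higher with SAM. *IL32* (0.002, adjusted p = 0.99) and *SPARC* (0.12, adjusted p = 0.38) did not pass. In the HSF1 target list 7 of 27 were higher and 0 lower with SAM than with DREAM at an FDR below 0.05, where 9.14% and 1.59% of all genes were. Relative to VPR 7 were higher and 4 lower, where 23.6% and 6.32% of all genes were. *HSPA6* differed by 0.92 from DREAM (adjusted p = 0.013) and by 1.67 from VPR (adjusted p = 0.00026), *DNAJA1* by 0.31 and 0.55 (adjusted p = 0.0095 and 0.00017), and *DNAJB4* by 0.55 and 0.66 (adjusted p = 0.0085 and 0.00067). *HSPA1B* differed by −0.01 from VPR (adjusted p = 0.93) and did not pass. *DNAJA1*, *DNAJB4* and *HSPA1B* were named after their values were seen.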

How the data were processed

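RNA was measured in HEK293T cells 72 h post-transfection. Libraries were made with a stranded total RNA kit, although the labels give polyA RNA as the molecule, and whether counting used strand is not given in the sources used here. Per the paper's methods and the labels, the authors aligned reads to hg38 with STAR 2.7.3a, quantified transcripts by a Bayesian approach and tested counts with DESeq2. The deposited values are CPM per gene, with 0.0001 added to each, and zeros therefore appear as this offset.

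Libraries were grouped by their labels. Because the files hold CPM, limma 3.58.1 (R 4.3.3; trend and robust) was fitted to log2(CPM + 0.5) over all 8 libraries, with 1 coefficient per group and 4 residual degrees of freedom. Genes reaching 1 CPM in 2 or more libraries entered the test (15122 of 19770), with Benjamini-Hochberg adjustment, and the threshold was a fold change above 2 and an FDR below 0.05. The scale understates changes of low genes. Between 64.7% and 69.3% of values under 1 CPM lay within 0.05 reads of a whole number, so read counts were not recovered. The fit was tested on simulated data before use. Median-of-ratios factors were computed from the CPM. The members of the comparison, the 57 gene lists and families and the motifs were chosen with earlier results of these data known. Named genes came from a rule, or were chosen after values were seen (*HSPH1*, *DNAJA1*, *DNAJB4*, *BAG3*, *HSPA1A*, *HSPA1B*, *HSP90AA1*, *DEDD2*, *CXCL8*, *AEN*, *CDKN1A*, *MDM2*, *TXNIP*, *PDK4*, *KLF10*, *IFI35*, *NLRC5*, *KIF20A*, *CDC20*, *PLK1*, *CENPF*, *CDT1*, *CCNE1*, *RPL7A*, *RPL28*, *S100A10*, *S100B*, *S100A4*, *INHBE*, *ID1*, *ID2*, *ID3*, *LGALS1*, *KRT18*, *CDH2*, *VWF*, *GATA1*, *KLF1*, *SLC4A1*, *LUM*). Outside the globin locus, *HSF1* and *RELA*, the rule took the 12 largest rises and falls at 10 CPM or more, the 5 largest at any level with both controls above 0, and in each list up to 3 per direction past the threshold, or up to 2 most abundant members. Lists got counts and medians, with no set test. Of 139 genes named, 36 overlap another gene of the files on the other strand, a count made without *COL3A1* and *CD24*. *CD24* was also chosen after values were seen. Alternatives were median-of-ratios scaling, pseudocounts of 0.1 and 1, no filter, a filter at 10 CPM, only the 4 libraries, a replicate block, other fold limits and leaving out each library. The FDR alone after scaling was added after the data were seen. Figures used Python 3.11.15 and matplotlib 3.10.9.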

Additional observations from a re-analysis of the deposited data

How the results depend on the processing

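Median-of-ratios scaling gave 390 genes higher and 109 lower, and the percent of called genes that are higher went from 89.5% to 78.2%. With no fold limit the calls were 6743 (5398 higher, 1345 lower), and with scaling as well 5934 (2745 and 3189, 46.3% higher). A fold limit of 1.5 gave 2193 (1919 and 274), and a test against a fold of 2 gave 68 (62 and 6). A pseudocount of 1 gave 406 (363 and 43). A filter at 10 CPM, which tests fewer genes, gave 145 (127 and 18), 11 for SAM relative to DREAM and 42 relative to VPR. Without each library in turn the calls ranged from 582 to 696, with 495 to 633 higher, 53 to 87 lower and 85.1% to 92.1% of calls higher. The lone library is then assumed to vary like the other groups.

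With the replicate block the calls were 660 (590 higher and 70 lower), 110 relative to DREAM and 349 relative to VPR. The deviations of same-numbered libraries correlated positively in every group pair, at 0.133 to 0.326. With 2 numbers this does not show whether replicate numbers pair samples. The block changed no call among the genes named.

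Of the named genes, the log2 fold change of *CENPF* was −0.096 after scaling, −0.076 without control replicate 2 and −0.070 without SAM replicate 1 (−0.076 to 0.23 over libraries left out), against 0.08. That of *RPL28* was −0.15 after scaling and −0.032 without control replicate 1 (−0.032 to 0.088), against 0.03. The cause was not tested. Among tested genes named, scaling took 10 rises under the fold limit and 5 falls past it, and a pseudocount of 1 took 19 under it, among them *LEFTY1*, *PECAM1*, *SLC8A1*, *TNFRSF1B*, *GDF5*, *GDF10*, *CD68*, *CHGA* and *EGR3*. Without 1 library between 4 and 6 calls of named genes were under it. The filter at 10 CPM, the 4-library fit and the replicate block changed no call of the named genes they tested. A pseudocount of 0.1 and no filter moved the number of calls by less than 1.5 times. At 28.5 to 35.2 M reads, genes under 3 reads in every library were below the level filter, so the main fit could not detect changes in them. A gene under 3 reads in the controls alone, such as *S100B*, could still be called.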

Other observations

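In the interleukin, chemokine and receptor family 3 of 31 rose and 0 fell, with a median of 0.44, where 3.89% of all genes rose. *IL18*, a cytokine released by inflammasomes, was at 0.223 and 0.457 CPM in the control libraries and 2.26 and 2.701 CPM with the SAM system (log2 fold change 1.84, adjusted p = 0.00026), *IL12RB2*, a chain of the interleukin 12 receptor, at 0.606 and 0.457 CPM in control and 1.77 and 1.36 CPM with SAM (log2 fold change 1.001, under the limit after scaling and without SAM replicate 1 or control replicate 2), and *TNFRSF1B*, a TNF receptor, at 0.415 and 0.424 CPM in control and 1.57 and 2.08 CPM with SAM (log2 fold change 1.33, adjusted p = 0.00041). *APOD*, a lipocalin, was at 0.383 and 0.522 CPM in control and 2.46 and 2.50 CPM with SAM (log2 fold change 1.65, adjusted p = 0.00012), the rise among 6 tested apolipoproteins (median 0.77). Of 232 solute carriers 10 rose and 1 fell (median 0.20), close to the 3.89% and 0.456% of all genes. *SLC16A4*, of the monocarboxylate transporter family, was at 8.90 and 9.03 CPM in control and 26.6 and 25.3 CPM with SAM (log2 fold change 1.48, adjusted p = 5.7e-06), where VPR gave 8.67 and 9.43 CPM. Its relative *SLC16A5* was at 2.11 and 1.43 CPM in control and 6.15 and 5.15 CPM with SAM (log2 fold change 1.45), and the zinc transporter *SLC30A2* at 0.287 and 0.261 CPM in control and 1.66 and 1.56 CPM with SAM (1.45). Among the 10 rises 3, *SLC30A2* included, reached the level filter only through the SAM libraries. The fall was *SLC8A1*, the sodium-calcium exchanger, at 9.41 and 8.94 CPM in control and 4.08 and 4.22 CPM with SAM (log2 fold change −1.06, adjusted p = 0.00012). *ZCCHC12*, a zinc finger coactivator of BMP signalling, was at 67.6 and 86.7 CPM in control and 165 and 205 CPM with SAM (log2 fold change 1.26, adjusted p = 0.0013).

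Neuronal and secretory genes held 3 rises and 1 fall among 23 tested (median 0.06), where 3.89% and 0.456% of all genes rose and fell. At an FDR below 0.05 alone 7 were higher and 11 lower, against 35.7% and 8.89% of all genes. *NRXN2*, a presynaptic adhesion protein, was at 2.97 and 2.31 CPM in control and 7.40 and 6.54 CPM with SAM (log2 fold change 1.26, adjusted p = 0.00034), and *GAP43*, of growing axons, at 1.28 and 1.63 CPM in control and 3.72 and 4.21 CPM with SAM (log2 fold change 1.20, adjusted p = 0.00044). *RTN1*, a reticulon of neuroendocrine cells, was at 3.57 and 2.67 CPM in control and 8.66 and 7.39 CPM with SAM (log2 fold change 1.24, adjusted p = 0.0002). *CHGA*, the granule protein chromogranin A, was at 1.31 and 1.27 CPM in control and 0.457 and 0.228 CPM with SAM (log2 fold change −1.10, adjusted p = 0.003), and was not past the threshold without SAM replicate 2. Growth factors *GDF10* and *GDF5* rose from 0.255 and 0.391 CPM and 0.128 and 0.196 CPM to 1.43 and 1.39 CPM and 1.003 and 1.02 CPM (log2 fold changes 1.22 and 1.19), and *GDF5* reached the level filter only through the SAM libraries. The keratin gene *KRT222* was at 0.889 and 1.04 CPM in control and 3.23 and 4.49 CPM with SAM (log2 fold change 1.56, adjusted p = 0.0002). The phosphatase *DUSP13*, which overlaps *SAMD8*, was at 0.574 and 0.750 CPM in control and 3.32 and 4.58 CPM with SAM (log2 fold change 1.93, adjusted p = 0.00017), against 5.22 and 8.71 CPM with DREAM. The claudin *CLDN23* was at 0.447 and 0.587 CPM in control and 1.52 and 1.59 CPM with SAM (1.02), under the fold limit after scaling and without SAM replicate 2 or control replicate 1. Both controls were under 1 CPM in 2 of the 3 claudin rises. Beside the family counts that follow, 3.89% of all genes rose and 0.456% fell. Rises and falls in further families were, in that order, dual-specificity phosphatases (2 and 0 of 20, median 0.23), BMP and GDF ligands (2 and 0 of 15, median 0.36), WNT ligands (2 and 0 of 13, median 0.42), keratins (2 and 0 of 6, median 0.38), claudins (3 and 0 of 7, median 0.46), aquaporins (1 and 0 of 4, median 0.54), histone genes (2 and 0 of 27, median 0.03), cytochrome P450 genes (0 and 2 of 19, median 0.23), TCEAL and BEX family (1 and 0 of 11, median 0.13), ZCCHC family (1 and 0 of 12, median 0.23), TNF superfamily and receptors (1 and 0 of 13, median 0.46) and adhesion G protein-coupled receptors (2 and 0 of 16, median 0.39). No member was past the threshold in translation factors, mitochondrial ribosomal proteins, nuclear-encoded respiratory chain, proteasome subunits, sterol and fatty acid synthesis, glycolysis and hypoxia, NRF2 targets, actin cytoskeleton and SRF targets, Mediator and coactivators, imprinted genes, clustered protocadherins, hnRNPs, mitochondrially encoded genes, cancer-testis genes, FGF ligands or tubulins. Their medians ran from −0.19 to 0.41.

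The libraries differed in 5.8S ribosomal RNA, at 65.2 and 10.9 CPM with SAM and 10.4 and 11.4 CPM in control libraries. It was at 55.8 and 35.6 CPM with DREAM and 64.9 and 16.8 CPM with VPR. In each activator group replicate 1 was the higher. Genes listed at 0 numbered 190 and 173 with SAM and 416 and 428 in the control.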
